A study of Homo sapiens with 6 samples.

Results

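Epithelial-mesenchymal transition (EMT) is the change by which cells held in a sheet by junctions lose those contacts and take on a migratory, matrix-producing form. The 10 genes described here are its best known regulators and readouts. SNAI1, SNAI2, ZEB1, ZEB2 and TWIST1 encode transcription factors that bind E-box sequences and repress epithelial genes. CDH1 (E-cadherin) and EPCAM encode epithelial adhesion molecules, while CDH2 (N-cadherin), VIM (vimentin) and FN1 (fibronectin) encode proteins of mesenchymal cells. The genes were taken by symbol from the expression table, which held 1 row for each, 10 of its 20494 genes. Of these, 7 had a mean of at least 1 RPKM (reads over the length of a gene in kilobases, relative to the library total) and were kept for comparison, as were 11881 genes of the whole table. CDH1, SNAI2 and EPCAM lay under that level in every library.

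The cells were PA-1, a human line from an ovarian teratocarcinoma with traits of pluripotent embryonal cells. Of the 6 RNA-seq libraries, 1 came from cells given the ligand Wnt3a (200 ng for 16 h) and 1 each from cells transfected for 48 h with 8 µg of plasmid for RIPK1, RIPK2, RIPK3 or RIPK4, kinases of the receptor-interacting protein family. The remaining library, Vector, came from cells given 8 µg of the empty pCDNA3.1 plasmid for 48 h. The labels list Wnt3a under a field named transfection, and for those cells a plasmid is neither named nor denied. Ligand, time and plasmid therefore cannot be told apart in that comparison.

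Each group is 1 library, so no spread between replicates and no p-value exists for any value. The only error available is that of counting reads, and 95% intervals below cover that alone. A difference is called beyond counting error where the interval of the ratio leaves out 1, and a ratio speaks of the 2 libraries it is taken from and not of the conditions in general. Library totals lay between 17.2 and 19.5 M reads. The limit that a count of 0 allows, 3 reads, equals 0.0769 to 0.0870 RPKM over a length of 2 kb. The RIPK3 transcript had 61.4 RPKM in the library named for it, against at most 0.0384 RPKM in the other 5, and RIPK4 had 17.9 RPKM in its own, against 0 in the other 5. RIPK2 stood at 27.4 RPKM in its own library, against 8.50 to 11.8 RPKM elsewhere. RIPK1 reached only 16.6 RPKM in its own library, against 9.35 to 13.4 RPKM in the other 5.

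The identity of the line was checked on markers of pluripotent cells, of which 10 of 12 were kept, among them SOX2, LIN28A, SALL4 and PODXL. NANOG lay under 1 RPKM and TDGF1 at 0 in every library. Markers of differentiated epithelium were under 1 RPKM throughout for 9 of 10 genes, and their summed level was 1.54 to 2.94 RPKM. Differences from Vector also followed the GC content of the transcripts. Over 11779 kept genes with a known GC content, Spearman's rho between GC content and the log2 difference was 0.699 with Wnt3a, −0.089 with RIPK1, 0.666 with RIPK2, 0.545 with RIPK3 and 0.669 with RIPK4. Genes are not independent replicates, so these are descriptions without a p. Values with this trend removed are given below for most of the genes described, in log2(RPKM + 1), and the part of the trend in any result was not tested.

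The promoters of the mesenchymal genes CDH2, VIM and FN1 and of the regulator ZEB1 are shown, because E-boxes are the sites read by the SNAI and ZEB factors. No promoter of SNAI1 was available. Each stretch is the 250 bases before a gene's start, 5′ to 3′ on the gene's strand, from RefSeq on GRCh38.p14. That is a later build than the hg19 named in the submitters' processing notes. Capitals mark a match to 1 of 4 motifs searched on both strands. These were the E-box CAGGTG, the cyclic AMP response element TGACGTCA, the AP-1 site TGACTCA, and the TCF/LEF core, spelled CTTTGA or else CTTTGT. They occur in 17.5%, 1.65%, 4.2% and 22.8%, in that order, of 35116 promoter stretches of this length. The table held promoters for 5 of the 10 genes.
CDH2, chr18:28177131-28177380, minus strand: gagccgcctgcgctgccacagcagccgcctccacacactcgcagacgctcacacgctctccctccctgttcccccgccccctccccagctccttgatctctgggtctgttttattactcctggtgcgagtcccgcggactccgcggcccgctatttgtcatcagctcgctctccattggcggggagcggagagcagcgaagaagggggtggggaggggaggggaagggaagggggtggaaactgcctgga
VIM, chr10:17227991-17228240, plus strand: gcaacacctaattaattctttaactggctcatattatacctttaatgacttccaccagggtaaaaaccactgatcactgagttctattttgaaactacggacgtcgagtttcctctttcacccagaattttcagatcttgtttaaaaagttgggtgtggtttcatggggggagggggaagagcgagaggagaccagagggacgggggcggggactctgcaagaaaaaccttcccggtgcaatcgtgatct
FN1, chr2:215436069-215436318, minus strand: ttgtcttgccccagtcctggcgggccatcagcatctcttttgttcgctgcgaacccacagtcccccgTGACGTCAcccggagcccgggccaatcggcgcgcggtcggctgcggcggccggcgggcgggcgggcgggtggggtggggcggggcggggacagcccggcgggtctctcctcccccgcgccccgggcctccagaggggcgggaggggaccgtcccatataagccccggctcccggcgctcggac
ZEB1, the first of 7 listed starts, chr10:31318167-31318416, plus strand: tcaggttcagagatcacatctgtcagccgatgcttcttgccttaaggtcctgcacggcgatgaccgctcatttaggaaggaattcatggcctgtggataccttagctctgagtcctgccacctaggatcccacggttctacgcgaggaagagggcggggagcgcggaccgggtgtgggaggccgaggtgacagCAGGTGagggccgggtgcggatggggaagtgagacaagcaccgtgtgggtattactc
FN1 held the cyclic AMP response element 183 bases before its start, and the ZEB1 stretch an E-box 57 bases before its start. Of the other ZEB1 starts, not printed, start 3 held E-boxes 242 and 85 bases before it, and the rest none of the motifs. The share of 17.5% is for 1 stretch, while 7 were searched for ZEB1. The CDH2 and VIM stretches held none of the 4 motifs, nor did that of CDH2 start 2, not printed. This says only that these letters are not in these windows. The ZEB2 stretch, not printed, held a TCF/LEF core 138 bases before the start. A match is a description of letters and not of binding.

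Of the mesenchymal readouts, VIM and CDH2 were abundant in every library and FN1 lay at 4.15 to 8.16 RPKM, while the epithelial CDH1 and EPCAM were close to absent. No kept gene of the 10 was 2-fold higher or lower than in Vector in log2(RPKM + 1) in any of the 5 comparisons. The share of all kept genes past that fold, in either direction, was 2.10% with Wnt3a, 0.842% with RIPK1, 2.29% with RIPK2, 2.05% with RIPK3 and 0.783% with RIPK4. At 1.5-fold, FN1 was the 1 gene higher in Wnt3a, where 7.95% of all kept genes were higher by that much. SNAI1 was the 1 gene higher by 1.5-fold in RIPK2, RIPK3 and RIPK4, where 7.56%, 6.02% and 4.92% of all kept genes were. That count rests on the 1 added to RPKM. With 0.1 added instead, FN1 was also past 1.5-fold in RIPK3 and RIPK4, at log2 differences of 0.60 and 0.66. SNAI1 with the GC trend removed was under 1.5-fold in all 3, at 1.44, 1.45 and 1.29-fold, while FN1 in Wnt3a stood at 1.65-fold. None of the 7 was 1.5-fold higher in RIPK1 as deposited, against 0.901% of all kept genes. No gene of the 7 was 1.5-fold lower in any library, while 8.87% of all kept genes were in Wnt3a, 1.76% in RIPK1, 6.52% in RIPK2, 3.36% in RIPK3 and 3.08% in RIPK4.

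**Figure D1:**
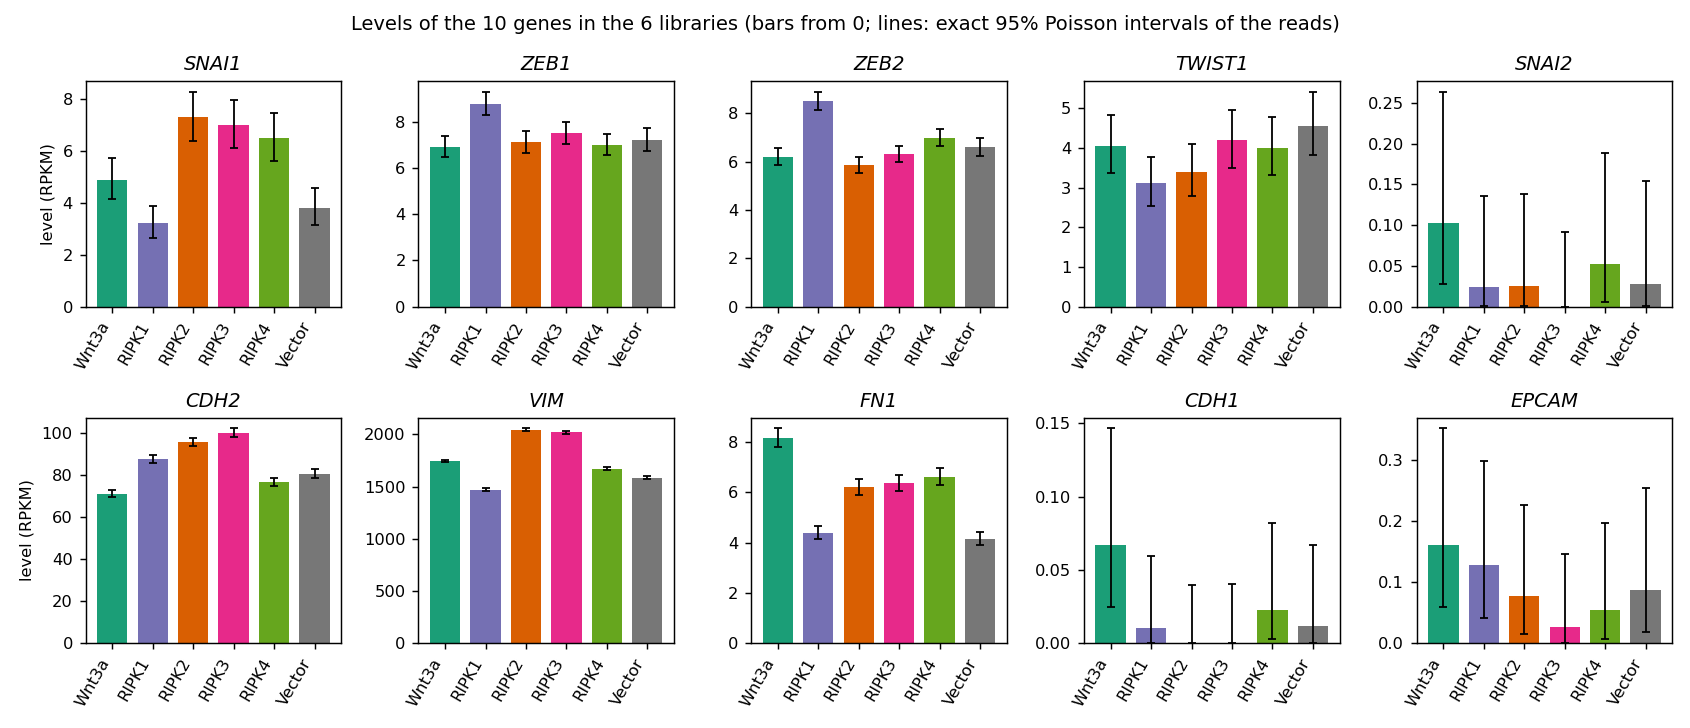
RPKM of each of the 10 genes in the Wnt3a, RIPK1, RIPK2, RIPK3, RIPK4 and Vector libraries, with bars from 0 and exact 95% Poisson intervals of the reads as lines; each panel has its own vertical scale. SNAI1 and FN1 show the widest spread of the kept genes, 3.21 to 7.30 RPKM for SNAI1 and 4.15 to 8.16 RPKM for FN1, while SNAI2, CDH1 and EPCAM stay below 0.2 RPKM.

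SNAI1, on chromosome 20, encodes Snail, a zinc-finger repressor of CDH1 and often the first of these factors to appear in EMT. It was higher in the RIPK2, RIPK3 and RIPK4 libraries than in Vector and RIPK1. Its level was 4.89 RPKM in Wnt3a (153 reads), 3.21 in RIPK1 (106), 7.30 in RIPK2 (238), 7.01 in RIPK3 (226) and 6.49 in RIPK4 (201), against 3.81 RPKM in Vector (111 reads). RIPK2, RIPK3 and RIPK4 formed a high group whose neighbours lay within counting error of each other. Wnt3a, Vector and RIPK1 followed below, again with neighbours within counting error. The ratio to Vector was 1.92 in RIPK2 (1.52 to 2.42), 1.84 in RIPK3 (1.46 to 2.33) and 1.70 in RIPK4 (1.35 to 2.17). It was 1.28 in Wnt3a (0.999 to 1.65) and 0.844 in RIPK1 (0.641 to 1.11), both intervals taking in 1. On the log2(RPKM + 1) scale the differences from Vector in RIPK2, RIPK3 and RIPK4 were 0.79, 0.74 and 0.64, and 3.3%, 3.4% and 3.3% of all kept genes lay at least as far on the higher side.

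SNAI1 has a transcript GC content of 58.2%, on the side where genes in general were higher in these libraries. With the GC trend removed, its log2 difference was 0.52 in RIPK2, 0.54 in RIPK3 and 0.37 in RIPK4, and −0.03 in Wnt3a, where the sign turned. Set directly against the RIPK1 library, SNAI1 was 2.27 times as high in RIPK2 (1.80 to 2.88), 2.18 times in RIPK3 (1.72 to 2.77) and 2.02 times in RIPK4 (1.59 to 2.58). RIPK4 stood 1.33 times as high as Wnt3a (1.07 to 1.65). SNAI2, which encodes Slug, the relative of Snail prominent in neural crest, was at the limit of detection. It had 4 reads in Wnt3a, 1 in RIPK1, 1 in RIPK2, 0 in RIPK3 and 2 in RIPK4, against 1 in Vector, a top level of 0.103 RPKM.

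ZEB1 and ZEB2 encode zinc-finger homeodomain repressors that silence CDH1 and are themselves held down by the miR-200 family and miR-205. Both were present at similar levels and, as deposited, both were highest in the RIPK1 library, which ZEB1 no longer was with the GC trend removed. ZEB1, on chromosome 10, stood at 6.92 RPKM in Wnt3a (880 reads), 8.77 in RIPK1 (1176), 7.11 in RIPK2 (942), 7.50 in RIPK3 (984) and 7.01 in RIPK4 (882), against 7.22 RPKM in Vector (855 reads). Only RIPK1 stood apart, at 1.22 times Vector (1.11 to 1.33), and all neighbours from RIPK3 downwards lay within counting error. ZEB2, on chromosome 2, stood at 6.19 RPKM in Wnt3a (1305 reads), 8.49 in RIPK1 (1885), 5.84 in RIPK2 (1282), 6.31 in RIPK3 (1371) and 6.98 in RIPK4 (1456), against 6.60 RPKM in Vector (1295 reads). RIPK1 was again the highest, 1.29 times Vector (1.20 to 1.38) and 1.22 times RIPK4, the next in order (1.13 to 1.30).

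ZEB2 in RIPK2 was the 1 other ZEB value beyond counting error against Vector, at 0.885 times Vector (0.819 to 0.957). The ZEB transcripts are poor in GC, with 38.5% for ZEB1 and 39.1% for ZEB2, and their values outside RIPK1 moved with the GC trend. With it removed, the ZEB2 difference in RIPK2 turned to 0.19 on the log2 scale, from −0.15 as deposited. The ZEB1 difference turned to 0.35 in Wnt3a, 0.34 in RIPK2 and 0.20 in RIPK4, from −0.05, −0.02 and −0.04, and in RIPK3 it came to 0.27, from 0.05. The RIPK1 differences, 0.25 for ZEB1 and 0.32 for ZEB2, were 0.24 and 0.31 with the trend removed. For ZEB1 that is below Wnt3a, RIPK2 and RIPK3, and for ZEB2 the next values were 0.30 in RIPK4 and 0.29 in Wnt3a. The counting strand is not given in the sources used here, and ZEB1 shares 366 exonic bases with its antisense gene ZEB1-AS1. That gene stood at 1.42 RPKM in Wnt3a, 1.62 in RIPK1, 1.4999 in RIPK2, 1.75 in RIPK3 and 1.97 in RIPK4, against 2.07 RPKM in Vector. Its part in the ZEB1 levels was not tested. ZEB2 shares 1299 exonic bases with ZEB2-AS1, not analysed here, and CDH1, CDH2 and TWIST1 also overlap antisense genes in their exons.

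TWIST1, on chromosome 7, encodes a basic helix-loop-helix factor of mesoderm and neural crest that favours CDH2 over CDH1. It was highest in Vector. Its level was 4.06 RPKM in Wnt3a (125 reads), 3.11 in RIPK1 (101), 3.40 in RIPK2 (109), 4.19 in RIPK3 (133) and 4.001 in RIPK4 (122), against 4.56 RPKM in Vector (131 reads). Each library lay within counting error of its neighbours in that order. Against Vector, RIPK1 was lower, at a ratio of 0.682 (0.520 to 0.890), and so was RIPK2, at 0.744 (0.572 to 0.967). The log2 differences were −0.44 in RIPK1 and −0.34 in RIPK2, and −0.44 and −0.58 with the GC trend removed. TWIST1 has a GC content of 57.2%. In Wnt3a, RIPK3 and RIPK4 it lay within counting error of Vector.

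**Figure D2:**
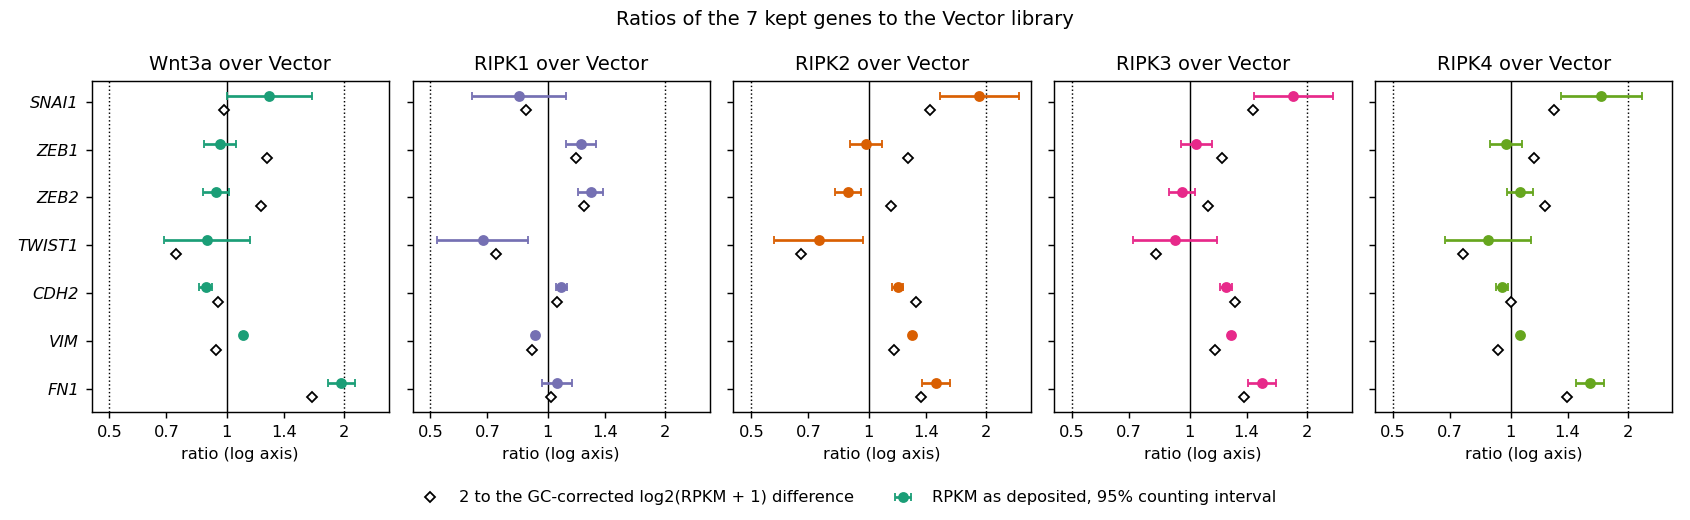
Ratio of RPKM to the Vector library for the 7 kept genes, 1 panel per comparison, on a log axis with dotted lines at 2-fold; filled points carry 95% counting intervals, and open diamonds are the fold from log2(RPKM + 1) differences with the GC trend removed. SNAI1 and FN1 lie to the right in RIPK2, RIPK3 and RIPK4, FN1 alone near 2-fold in Wnt3a (1.96), and ZEB1 and ZEB2 to the right in RIPK1.

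The cadherins join neighbouring cells through their outer domains and hold the actin cytoskeleton through catenins. CDH1, on chromosome 16 and the main target of the factors above, had 6 reads in Wnt3a, 1 in RIPK1, 0 in RIPK2, 0 in RIPK3 and 2 in RIPK4, against 1 in Vector. Its level never passed 0.0673 RPKM, and every interval of its ratio to Vector took in 1, so no difference was detectable at this depth. CDH2, on chromosome 18, was abundant, at 71.0 RPKM in Wnt3a (5885 reads), 87.3 in RIPK1 (7620), 95.6 in RIPK2 (8248), 99.8 in RIPK3 (8522) and 76.5 in RIPK4 (6270), against 80.6 RPKM in Vector (6215 reads). All neighbours in this order lay beyond counting error of each other, though the whole span was 1.41-fold. CDH2 was higher than in Vector in RIPK3 (1.24 times, 1.20 to 1.28), RIPK2 (1.19, 1.15 to 1.23) and RIPK1 (1.08, 1.048 to 1.12). It was lower in Wnt3a (0.882, 0.851 to 0.914) and RIPK4 (0.950, 0.917 to 0.984).

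CDH2 has a GC content of 44.97%. With the GC trend removed, its log2 difference was 0.40 in RIPK2 and 0.39 in RIPK3, from 0.24 and 0.31 as deposited, and in RIPK4 it came to 0.00, from −0.07. CDH2 separated RIPK2 and RIPK3 from RIPK4, at 1.25 times (1.21 to 1.29) and 1.30 times (1.26 to 1.35) the RIPK4 level. SNAI1 lay within counting error in the same pairs, at 1.12 times (0.928 to 1.36) and 1.08 times (0.889 to 1.31).

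CDH2 was not the most abundant classical cadherin in most libraries. Of 23 cadherin genes in the table, 4 were kept, and CDH6 (K-cadherin, known from kidney and neural crest) exceeded CDH2 in every library but RIPK3. CDH6 stood at 91.4 RPKM in Wnt3a, 136 in RIPK1, 108 in RIPK2, 97.9 in RIPK3 and 109.5 in RIPK4, against 123 RPKM in Vector. CDH2 made up 38.5% of all cadherin RPKM in Wnt3a, 36.2% in RIPK1, 40.5% in RIPK2, 44.0% in RIPK3 and 36.4% in RIPK4, against 36.2% in Vector. CDH6 made up 49.5% in Wnt3a, 56.5% in RIPK1, 45.9% in RIPK2, 43.1% in RIPK3 and 52.1% in RIPK4, against 55.2% in Vector. The rest came mainly from CDH24 and from CDH5, the cadherin of endothelium. CDH5 was 2.03 times Vector in RIPK2 (1.81 to 2.27) and 2.12 times in RIPK3 (1.90 to 2.38), and CDH24 1.63 times in RIPK2 (1.49 to 1.78). The log2 difference of CDH5 with the GC trend removed was 0.74 in RIPK2 and 0.82 in RIPK3, from 0.90 and 0.96, and that of CDH24 in RIPK2 was 0.29, from 0.66. CDH11, a cadherin typical of mesenchymal cells, was at 0 in all 6 libraries.

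**Figure D3:**
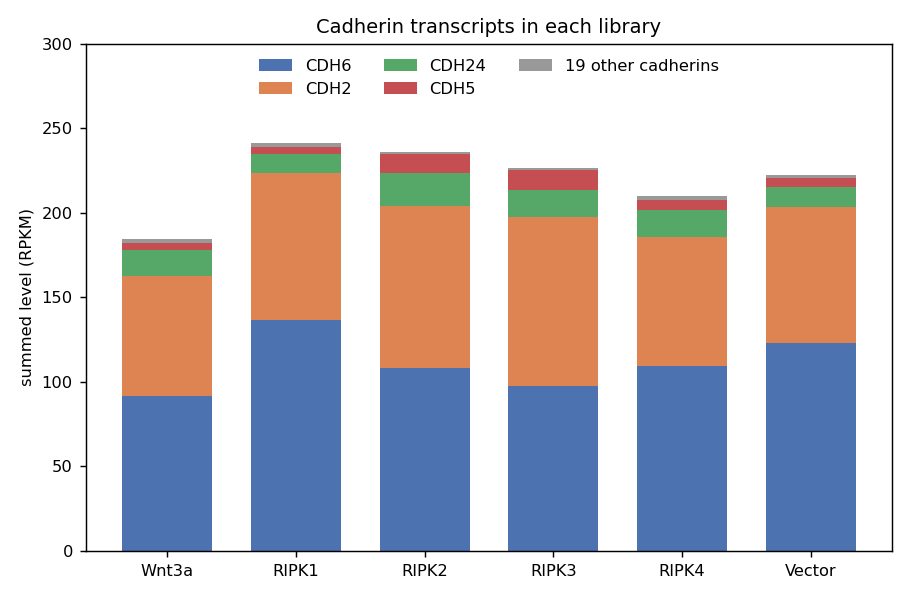
Summed RPKM of the 23 cadherin genes in each library, stacked by gene, with the 19 cadherins that were not kept drawn as 1 grey segment. Totals run from 185 RPKM in Wnt3a to 241 RPKM in RIPK1, and CDH6 and CDH2 take most of every bar.

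EPCAM, on chromosome 2, encodes an adhesion molecule of epithelia that is also typical of undifferentiated pluripotent stem cells. It had 6 reads in Wnt3a, 5 in RIPK1, 3 in RIPK2, 1 in RIPK3 and 2 in RIPK4, against 3 in Vector, and its level never passed 0.162 RPKM. No ratio to Vector was distinguishable from 1, and in bulk RNA few cells with much transcript cannot be told apart from many cells with little.

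VIM, on chromosome 10, encodes the main intermediate filament of mesenchymal cells and ranked between 2 and 3 from the top of all 20494 genes in each library. Its level was 1747 RPKM in Wnt3a, 1472 in RIPK1, 2043 in RIPK2, 2019.9 in RIPK3 and 1672 in RIPK4, against 1586 RPKM in Vector. RIPK2 and RIPK3 were the highest and RIPK1 the lowest. The ratio to Vector was 1.29 in RIPK2 (1.28 to 1.30) and 1.27 in RIPK3 (1.26 to 1.29), and 0.929 in RIPK1 (0.918 to 0.939). Wnt3a at 1.10 (1.09 to 1.11) and RIPK4 at 1.054 (1.043 to 1.066) lay above Vector as deposited. With the GC trend removed they turned to −0.09 and −0.11 on the log2 scale, while RIPK2 and RIPK3 kept 0.21 and 0.22 of 0.37 and 0.35. The reads behind VIM are approximate, since no length gave whole reads and the annotated 2135 bases were used, and at such counts the intervals are far narrower than differences between cultures could be. VIM also shares 641 exonic bases with VIM-AS1 on the other strand.

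FN1, on chromosome 2, encodes fibronectin, a matrix glycoprotein bound by integrins. It had the largest difference from Vector of the 10 genes in Wnt3a. Its level was 8.16 RPKM in Wnt3a (1926 reads), 4.40 in RIPK1 (1093), 6.19 in RIPK2 (1522), 6.35 in RIPK3 (1544) and 6.63 in RIPK4 (1547), against 4.15 RPKM in Vector (913 reads). Wnt3a stood alone at the top, RIPK4, RIPK3 and RIPK2 followed within counting error of their neighbours, and RIPK1 and Vector lay together at the bottom. The ratio to Vector was 1.96 in Wnt3a (1.81 to 2.13), 1.49 in RIPK2 (1.37 to 1.62), 1.53 in RIPK3 (1.41 to 1.66) and 1.60 in RIPK4 (1.47 to 1.73), and 1.06 in RIPK1 (0.968 to 1.16). On the log2(RPKM + 1) scale the difference was 0.83 in Wnt3a, and 1.79% of all kept genes lay at least as far on the higher side.

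FN1 has a GC content of 50.2%, and in these 4 libraries the GC trend moved it less than it moved SNAI1. With the trend removed the log2 differences were 0.72 in Wnt3a, 0.45 in RIPK2, 0.46 in RIPK3 and 0.48 in RIPK4, against 0.83, 0.48, 0.51 and 0.57 as deposited. RIPK4 stood at 0.812 times Wnt3a (0.759 to 0.869). Relative to RIPK1, FN1 was 1.41 times as high in RIPK2 (1.30 to 1.52), 1.44 times in RIPK3 (1.34 to 1.56) and 1.51 times in RIPK4 (1.39 to 1.63). SNAI1 and FN1 shared a high level in RIPK2, RIPK3 and RIPK4 and a low one in RIPK1 and Vector, but not in Wnt3a, where FN1 was highest and SNAI1 within counting error of Vector. All these comparisons share the Vector or the RIPK1 library. FN1 reads were recovered at a length of 12740 bases, longer than the 8905 of its GENCODE 29 transcript.

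**Figure D4:**
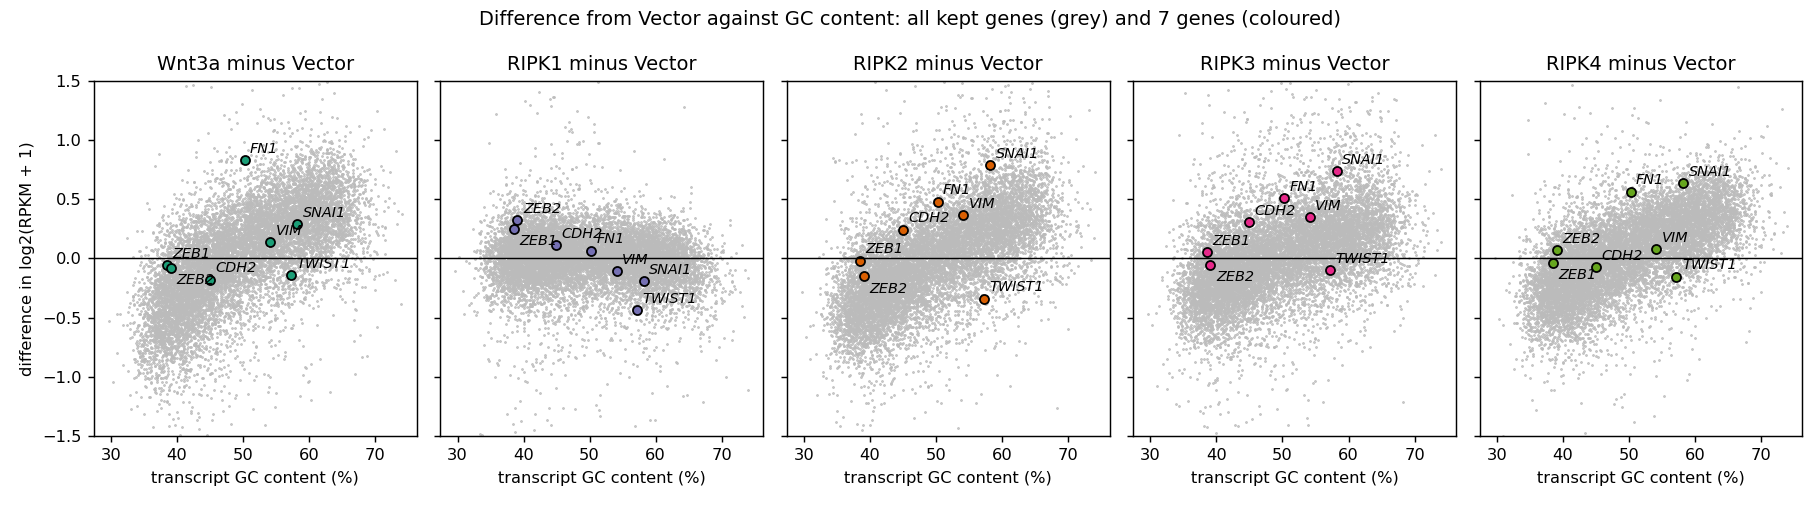
Difference from Vector in log2(RPKM + 1) against transcript GC content, 1 panel per comparison, for all kept genes (grey, those beyond 1.5 on either side not drawn) and the 7 kept genes (coloured, named). The cloud tilts upwards in every panel but RIPK1, and FN1 lies near its top in Wnt3a, SNAI1 and FN1 near its upper edge in RIPK4, and TWIST1 near its lower edge in RIPK2.

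Other genes of the programme were read from 12 lists of partners, regulators and readouts, by counts at 2-fold and by medians beside that of all kept genes. The median of the 7 kept genes was −0.05 in Wnt3a, 0.07 in RIPK1, 0.24 in RIPK2, 0.31 in RIPK3 and 0.07 in RIPK4, against 0.04, 0.01, −0.01, 0.02 and 0.05 over all kept genes in the same order. Among 10 kept EMT transcription factors outside the 10 genes, 1 was 2-fold higher in RIPK2 and in RIPK3, where 1.59% and 1.47% of all kept genes were, none in the other 3 comparisons, and none was 2-fold lower. This was HMGA2, an architectural chromatin protein that works with SMADs on the SNAI1 promoter. It stood at 28.0 RPKM in Wnt3a, 33.9 in RIPK1, 86.5 in RIPK2, 96.3 in RIPK3 and 34.4 in RIPK4, against 38.6 RPKM in Vector. Its ratio to Vector was 2.24 in RIPK2 (2.18 to 2.31), 2.50 in RIPK3 (2.43 to 2.57) and 0.890 in RIPK4 (0.860 to 0.921). Its log2 difference with the GC trend removed was 1.49 in RIPK2, 1.51 in RIPK3 and 0.07 in RIPK4, from 1.14, 1.30 and −0.16. The part of HMGA2 in the SNAI1 levels was not tested. ETS1, a factor of mesodermal and endothelial cells, was 1.80 times Vector in RIPK2 (1.66 to 1.96) and 2.04 times in RIPK3 (1.88 to 2.21), or 0.78 and 0.95 in log2(RPKM + 1), and 1.02 and 1.09 with the GC trend removed.

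TGF-beta is the best known inducer of SNAI1 and ZEB expression. Of 10 kept ligands, receptors and SMADs, 1 was 2-fold higher in RIPK2 and in RIPK3, TGFB1, against the same 1.59% and 1.47% of all kept genes, and none was 2-fold higher or lower elsewhere. TGFB1 stood at 35.9 RPKM in Wnt3a, 24.7 in RIPK1, 102 in RIPK2, 104 in RIPK3 and 39.3 in RIPK4, against 33.5 RPKM in Vector. Its log2 difference was 1.58 in RIPK2 and 1.61 in RIPK3, and 1.21 and 1.35 with the GC trend removed. BAMBI, a pseudoreceptor that damps the pathway, was 1.85 times Vector in RIPK2 (1.71 to 2.004) and 1.65 times in RIPK3 (1.52 to 1.78), or 0.86 and 0.70 in log2(RPKM + 1), and 0.71 and 0.57 with the trend removed. The partners through which SNAI1 and ZEB1 repress or are degraded showed no 2-fold change among 16 kept genes in any comparison. FBXO11 had the largest difference, with log2 values of −0.66 in Wnt3a, −0.45 in RIPK2, −0.31 in RIPK3 and −0.53 in RIPK4. With the GC trend removed these were −0.32, −0.14, −0.12 and −0.32. SUZ12 differed by −0.49, −0.60, −0.43 and −0.42 in the same libraries, and by −0.07, −0.23, −0.20 and −0.17 with the trend removed. Both lay within counting error of Vector in RIPK1. The histone deacetylase HDAC2 was 0.667 times Vector in RIPK2 (0.646 to 0.690) and 0.697 times in RIPK4 (0.674 to 0.720). Its log2 differences there were −0.57 and −0.51, and −0.20 and −0.26 with the GC trend removed. HDAC2 was also lower in RIPK3, at 0.772 (0.748 to 0.797), and in Wnt3a, at 0.775 (0.751 to 0.800). With the trend removed these came to −0.13 and 0.06 on the log2 scale, from −0.36 and −0.36. In RIPK1 it was 1.06 times Vector (1.03 to 1.09). The LIM protein AJUBA, a corepressor partner of SNAI1, was 0.660 times Vector in RIPK2 (0.608 to 0.716) and 1.18 times in RIPK4 (1.10 to 1.27), or −0.56 and 0.22 on the log2 scale, and −0.67 and 0.07 with the trend removed. AJUBA in RIPK3 was close to RIPK2, at 0.686 times Vector (0.632 to 0.744), or −0.51, and −0.61 with the trend removed.

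MIR205HG, the host gene of miR-205, was the 1 gene of the miR-200 and miR-205 list measured here. It stood at 7.26 RPKM in Wnt3a (516 reads), 2.83 in RIPK1 (212), 3.62 in RIPK2 (268), 3.44 in RIPK3 (252) and 4.72 in RIPK4 (332), against 5.86 RPKM in Vector (388 reads). RIPK1 had the lowest level, 0.483 times Vector (0.407 to 0.573), and 0.85% of all kept genes lay at least as far on the lower side in log2(RPKM + 1). RIPK2 at 0.618 (0.527 to 0.724), RIPK3 at 0.587 (0.499 to 0.690) and RIPK4 at 0.805 (0.694 to 0.935) were also lower. Wnt3a was higher, at 1.24 (1.08 to 1.42). The log2 differences of MIR205HG with the GC trend removed were −0.88 in RIPK1, −0.52 in RIPK2 and −0.62 in RIPK3, from −0.84, −0.57 and −0.63. In RIPK4 and Wnt3a they were −0.28 and 0.25, from −0.26 and 0.27. The miRNA it carries is shown with its seed, bases 2 to 8, in capitals, as RefSeq lists it on GRCh38.p14 at chr1:209432166-209432187, plus strand.
hsa-miR-205-5p: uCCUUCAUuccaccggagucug
Reads on the host transcript do not measure the mature miRNA.

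On the epithelial side, none of 20 kept junction and surface genes was 2-fold higher or lower in any comparison, yet in RIPK4 all 20 lay above Vector, as did 55.6% of all kept genes. That number was 18 under median-ratio scaling, against 49.6% of all kept genes, and 15 with the GC trend removed, against 50.4% of those with a known GC content. The median difference there was 0.18, against 0.05 for all kept genes, and 0.17 with the trend removed. In the other libraries 16 of 20 lay above Vector in Wnt3a, 11 in RIPK1, 10 in RIPK2 and 10 in RIPK3, against 53.3%, 52.2%, 49.1% and 52.2% of all kept genes. LLGL2, a polarity gene, was 1.77 times Vector in Wnt3a (1.58 to 1.995) and 1.69 times in RIPK4 (1.498 to 1.90). Its log2 differences of 0.73 and 0.67 were 0.34 and 0.29 with the GC trend removed. The plakophilin PKP2, a desmosome plaque protein, was 0.565 times in RIPK2 (0.496 to 0.642) and 0.618 times in RIPK3 (0.546 to 0.701), or −0.71 and −0.60 on the log2 scale, and −0.61 and −0.56 with the trend removed. PRSS8, of the same list, went the other way, at 4.98 RPKM in RIPK2 and 5.43 in RIPK3, against 2.75 RPKM in Vector. The log2 differences of PRSS8 as deposited were 0.67 and 0.78, with 0.61 in Wnt3a and 0.60 in RIPK4. At 1.5-fold, 1 of the 20 was higher and 1 lower in RIPK2 and likewise in RIPK3. Of all kept genes, 7.56% and 6.02% were higher by that much and 6.52% and 3.36% lower. Of 12 factors that maintain the epithelial state, 4 were kept and none was 2-fold apart. GRHL3, of the Grainyhead family, stood at 1.54 times Vector in Wnt3a (1.29 to 1.84), 1.37 times in RIPK4 (1.14 to 1.65) and 0.775 times in RIPK3 (0.630 to 0.953). Its log2 differences there were 0.52, 0.38 and −0.29, and 0.35, 0.24 and −0.38 with the trend removed. ESRP2, also of these 4, was lower in RIPK4, at 0.723 times Vector (0.569 to 0.918), and in RIPK1, at 0.674 (0.530 to 0.856). The log2 differences of ESRP2 there were −0.31 and −0.37, and −0.61 and −0.36 with the trend removed. GRHL1 was higher in Wnt3a, at 1.74 (1.34 to 2.27). In RIPK4, GRHL1 and KLF5 lay within counting error of Vector.

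KRT8 and KRT18, the keratin pair of simple epithelia, were the 2 kept of 6 such keratins, and were present although CDH1 and EPCAM were not. KRT8 stood at 151 RPKM in Wnt3a, 99.1 in RIPK1, 157 in RIPK2, 168 in RIPK3 and 145 in RIPK4, against 123 RPKM in Vector. KRT18 stood at 117 RPKM in Wnt3a, 80.4 in RIPK1, 140.4 in RIPK2, 152 in RIPK3 and 125 in RIPK4, against 110.2 RPKM in Vector. Both keratins and VIM were lowest in RIPK1 and higher in RIPK2 and RIPK3. In RIPK1 the ratios to Vector were 0.808 (0.775 to 0.843) for KRT8 and 0.730 (0.693 to 0.769) for KRT18. KRT8 with the GC trend removed differed by −0.33 in RIPK1, 0.22 in RIPK2 and 0.33 in RIPK3 on the log2 scale, from −0.30, 0.35 and 0.45. KRT18 differed by −0.45, 0.12 and 0.28 in the same libraries, from −0.45, 0.35 and 0.46. None of 9 other kept intermediate filament genes and none of 8 kept catenins and cadherin partners was 2-fold apart from Vector. JUP, the junction plakoglobin, was 1.66 times Vector in RIPK2 (1.56 to 1.77), with a log2 difference of 0.70 and of 0.37 with the GC trend removed. As deposited, its log2 difference was also 0.61 in RIPK3, 0.55 in Wnt3a and 0.54 in RIPK4, and −0.01 in RIPK1.

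The mesenchymal matrix and contractile genes had their largest counts at 2-fold in RIPK2 and RIPK3. Of 28 kept genes, 8 were 2-fold higher and 1 lower in RIPK2, and 9 higher and 1 lower in RIPK3, against 1.59% higher and 0.699% lower of all kept genes in RIPK2 and 1.47% and 0.581% in RIPK3. LOX, counted as higher in both, was kept only through its levels there, 9.26 and 8.68 RPKM. In Wnt3a, RIPK1, RIPK4 and Vector it lay under 1 RPKM. In Wnt3a and in RIPK1 none was higher and 1 was lower, where 0.673% and 1.43% of all kept genes were higher and lower in Wnt3a and 0.295% and 0.547% in RIPK1. In RIPK4 none was 2-fold apart, against 0.396% higher and 0.387% lower. Their median was 0.69 in RIPK2 and 0.71 in RIPK3, 0.22 in Wnt3a, −0.13 in RIPK1 and 0.25 in RIPK4. With the GC trend removed these medians were 0.42, 0.57, 0.14, −0.15 and 0.10, and 6 genes in RIPK2 and 9 in RIPK3 were 2-fold higher. TNC, tenascin C, stood at 17.7 RPKM in Wnt3a, 11.4 in RIPK1, 37.1 in RIPK2, 37.8 in RIPK3 and 17.4 in RIPK4, against 12.6 RPKM in Vector. Its log2 difference was 1.48 in RIPK2 and 1.51 in RIPK3, and 1.33 and 1.38 with the trend removed. NT5E, the surface nucleotidase CD73, was 2.69 times Vector in RIPK2 (2.46 to 2.96), 3.60 times in RIPK3 (3.30 to 3.94) and 0.556 times in RIPK1 (0.488 to 0.632), or 1.33, 1.73 and −0.73 on the log2 scale, and 1.48, 1.81 and −0.76 with the trend removed. POSTN, periostin, was the 1 gene of the list 2-fold lower in Wnt3a, RIPK2 and RIPK3, and was named after its values were seen.

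Fibronectin receptors and assembly genes gave 2 of 9 kept genes 2-fold higher in RIPK2 and in RIPK3, ITGA3 and TNS1, against 1.59% and 1.47% of all kept genes, and none elsewhere in either direction. TNS1 was kept only through its levels in RIPK2 and RIPK3, 1.78 and 1.83 RPKM, so its place in this count is no separate result. In Wnt3a, RIPK1, RIPK4 and Vector it lay under 1 RPKM. With the GC trend removed, ITGA3 alone passed 2-fold. ITGA5, the alpha chain of the main fibronectin receptor, stood at 22.1 RPKM in Wnt3a, 14.96 in RIPK1, 29.3 in RIPK2, 29.96 in RIPK3 and 24.05 in RIPK4, against 15.8 RPKM in Vector. It was 1.85 times Vector in RIPK2 (1.73 to 1.99), 1.90 times in RIPK3 (1.77 to 2.04) and 1.52 times in RIPK4 (1.41 to 1.64). Its log2 differences of 0.85, 0.88 and 0.58 were 0.58, 0.68 and 0.30 with the GC trend removed. ITGA3 was 2.86 times Vector in RIPK2 (2.71 to 3.02) and 3.01 times in RIPK3 (2.85 to 3.18), or 1.47 and 1.54 on the log2 scale, and 1.15 and 1.31 with the trend removed.

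Markers of other cell types were read beside these lists. Fibroblast markers summed to 159 RPKM in Wnt3a, 113 in RIPK1, 163 in RIPK2, 165 in RIPK3 and 156 in RIPK4, against 124 RPKM in Vector, with 4 of 10 genes kept and the defining DCN and DPT at 0 in every library. Most of this sum was THY1, at 64.9 to 118 RPKM, and FBLN1, at 32.8 to 52.0 RPKM. PDGFRA went the other way, at 0.864 times Vector in Wnt3a, 1.08 in RIPK1, 0.779 in RIPK2, 0.859 in RIPK3 and 0.780 in RIPK4. With the GC trend removed its log2 differences were 0.02, 0.08, −0.09, −0.06 and −0.17. PDGFRB and THY1 are also counted among the mesenchymal genes above. Endothelial markers summed to 88.4 RPKM in Wnt3a, 77.2 in RIPK1, 112 in RIPK2, 115 in RIPK3 and 81.3 in RIPK4, against 74.4 RPKM in Vector, with 6 of 8 genes kept and VWF and CLDN5 under 1 RPKM. Pluripotent-type markers summed to 1108 RPKM in Wnt3a, 1305 in RIPK1, 843 in RIPK2, 883 in RIPK3 and 1276 in RIPK4, against 1218 RPKM in Vector. PODXL, at 399 to 628 RPKM, and LIN28A, at 213 to 392 RPKM, made up most of that sum, and single markers did not follow it. SOX2, a core factor of pluripotent cells, stood at 48.1 RPKM in Wnt3a, 133 in RIPK1, 63.2 in RIPK2, 68.5 in RIPK3 and 78.1 in RIPK4, against 148.6 RPKM in Vector. PRDM14, another regulator of the pluripotent state, stood at 25.2 RPKM in Wnt3a, 70.3 in RIPK1, 36.1 in RIPK2, 35.03 in RIPK3 and 44.9 in RIPK4, against 56.8 RPKM in Vector. TRIM71 was higher in all 5 libraries, at 77.5 RPKM in RIPK4, against 31.4 RPKM in Vector. Of 8 haematopoietic markers, 7 lay under 1 RPKM in every library, among them PTPRC, CD14 and ITGAM. The remaining one, CD68, a lysosomal protein abundant in macrophages, stood at 1.89 RPKM in Wnt3a, 1.52 in RIPK1, 4.89 in RIPK2, 4.80 in RIPK3 and 1.94 in RIPK4, against 1.94 RPKM in Vector. These single markers were chosen after their values were seen. The part of all these markers in the differences of SNAI1, VIM, FN1 and the mesenchymal genes was not tested.

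**Figure D5:**
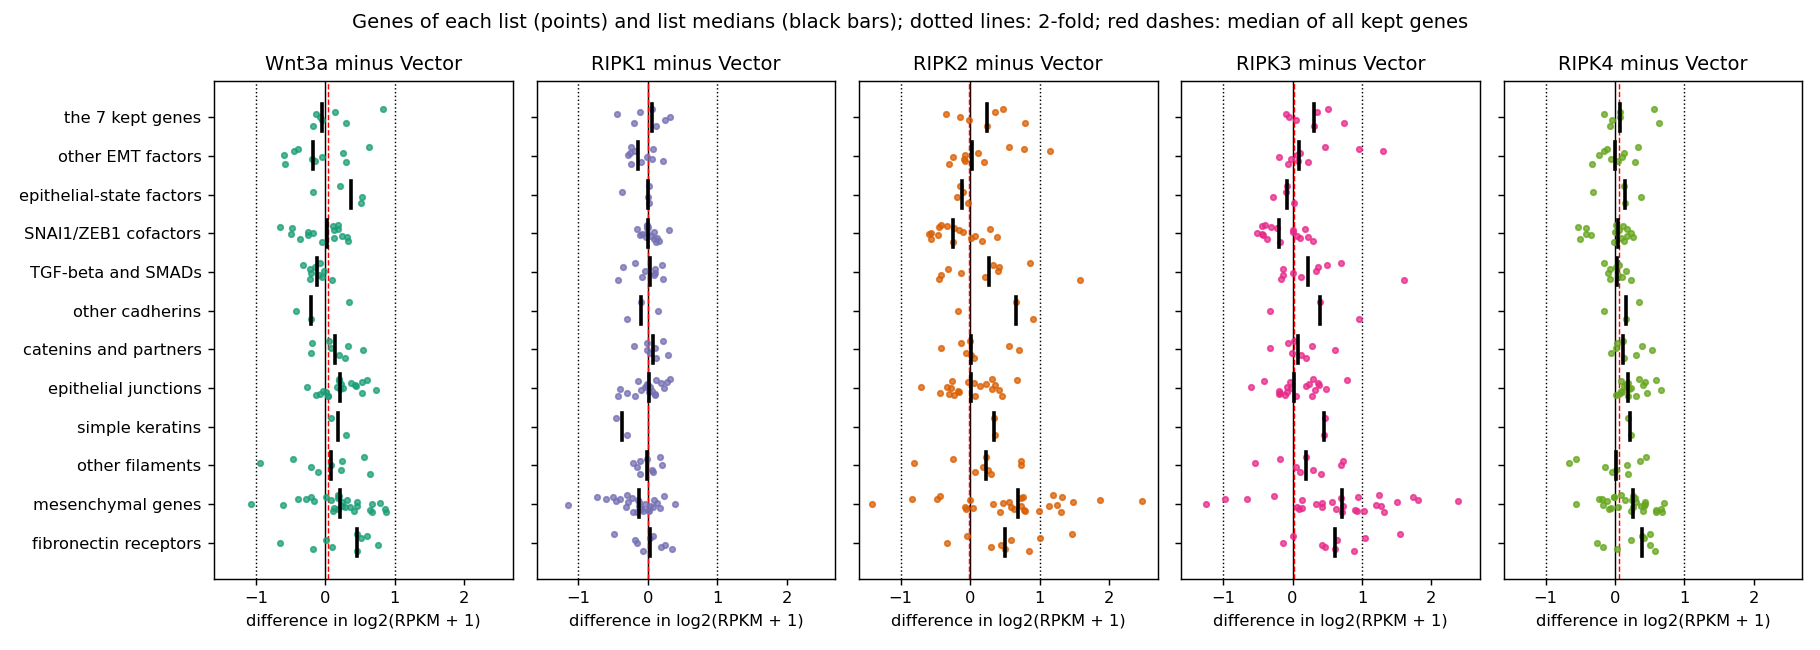
Difference from Vector in log2(RPKM + 1) for the kept genes of 12 groups, 1 panel per comparison, with points for genes, black bars for group medians, dotted lines at 2-fold and a red dashed line at the median of all kept genes. The mesenchymal genes reach furthest to the right in RIPK2 and RIPK3, while the epithelial junction genes stay within 2-fold in all 5 panels and all 20 lie right of 0 in RIPK4 as deposited (18 under median-ratio scaling and 15 with the GC trend removed).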

How the data were processed

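RNA of 6 PA-1 libraries, 1 per group, was sequenced. The authors deposited a table of RPKM per gene, with 1 column per library, per the file headers. GSNAP, DESeq and hg19 are named in the submitters' processing notes, without versions or roles. Not given in the sources used here were the annotation and the counting strand. RPKM was used as deposited. The 10 genes and the 17 gene lists (12 programme, 5 marker) were chosen with earlier results of these data known.

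Reads were recovered by finding, for each gene, a length of 15 to 30000 bases that turned its 6 values into whole numbers of reads, allowing for rounding to 5 digits. Where several lengths did so, the one nearest the GENCODE 29 length was taken. This solved 83.4% of 20494 genes and 94.4% of the 11881 kept at a mean RPKM of at least 1, and VIM was not among them. The recovery and the GC correction were tested on simulated data. Differences from Vector were taken in log2(RPKM + 1) and called at 2-fold; the transfected kinase was left out of the share of all kept genes. Ratios of RPKM carry exact Clopper-Pearson 95% intervals and levels exact Poisson intervals, which leave out all other error, as amplified reads carry no molecular identifier. GC content came from GENCODE 29 transcripts, and its trend was removed by lowess (span 0.3). Alternatives were a pseudocount of 0.1, no filter, median-ratio scaling, the GC correction and a 1.5-fold threshold. Named genes were the 10 genes and up to 4 kept genes per list with the largest difference from Vector. Genes alike in pattern were to be named only for a gene spanning 2-fold over the libraries in log2(RPKM + 1), which none did. Python 3.11.15, numpy 2.4.6, pandas 2.3.3, scipy 1.17.1, statsmodels 0.14.6 and matplotlib 3.10.9 were used.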

Additional observations from a re-analysis of the deposited data

How the results depend on the processing

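The count of kept genes of the 10 that were 2-fold apart from Vector was 0 in all 5 comparisons with a pseudocount of 0.1, with no filter, with median-ratio scaling and with the GC trend removed. At a 1.5-fold threshold it was 1 in Wnt3a, 1 in RIPK2, 1 in RIPK3 and 1 in RIPK4, and 0 in RIPK1. With that threshold and the GC trend removed together, a setting chosen after seeing the data, it was 1 in Wnt3a (FN1) and 0 in RIPK1, RIPK2, RIPK3 and RIPK4. With that threshold and a pseudocount of 0.1, likewise chosen after seeing the data, FN1 also passed in RIPK3 (0.60) and RIPK4 (0.66). Of the 35 differences of single genes, none changed sign under median-ratio scaling or the smaller pseudocount, and 10 did with the GC trend removed. These were SNAI1, ZEB1, ZEB2 and VIM in Wnt3a, ZEB1 and ZEB2 in RIPK2, ZEB2 in RIPK3, and CDH2, ZEB1 and VIM in RIPK4; the largest shift was 0.40 on the log2 scale. No paired analysis was possible because each group is 1 library. No replicate could be left out for the same reason. With 0 to 6 reads a library, CDH1, SNAI2 and EPCAM allow no difference to be detected.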
